A study of Mus musculus with 12 samples.

Results

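Sgk1 was followed here across both kinds of measurement in the series, as the FPKM of its RefSeq transcripts in the control and stress RNA tables and as 5-hydroxymethylcytosine (5hmC) peaks in 6 libraries. All entries with the gene name Sgk1 were taken, 6 of 33262 transcripts and 1 of 23953 genes, together with every peak in the gene body and 50 kb either side. These peaks formed 12 merged regions of 74450 in the genome. The gene lies on the plus strand of chromosome 10, from 21601990 to 21719708 in mm9.

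The animals were male C57BL/6 mice, and the tissue was hippocampus taken by micropunch. The stress group of 6 mice was restrained for 30 min in a conical vial from 2 h after lights on, then housed singly in a clean cage for 1 h. The control group of 5 mice was naive and was taken from the cage when restraint of the other group began, so restraint, single housing and a later time of collection cannot be told apart. Both groups received brief isoflurane anaesthesia. DNA and RNA came from the same 3 pools per group, of at most 2 mice each, and since the control group held 5 mice, 1 of its pools was a single mouse. The age is tagged as postnatal day 28 and described as 7 weeks in the protocol.

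SGK1 is a serine/threonine kinase of the AGC family whose gene is switched on by serum and by glucocorticoids. Its activity needs phosphorylation by mTOR complex 2 and PDPK1, and it is known for raising the number of ion channels and transporters at the cell surface, in part by acting on the ubiquitin ligase NEDD4L. In hippocampus it has been tied to synaptic plasticity and to the effects of stress hormones. Alternative first exons of Sgk1 give proteins that differ at the N terminus, where the signals for rapid breakdown and for membrane binding lie. 5hmC is an oxidised form of methylcytosine made by TET enzymes, and in neurons it is abundant within gene bodies.

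The 6 transcripts had 6 different start sites and shared their last 11 exons, 2295 bases in all. The longest, NM_001161845, spanned all 118 kb and had 3 exons of its own with 810 bases. The other 5 began between 96.5 and 112 kb further on and differed from each other in a single first exon. That exon measured 311 bases in NM_001161847, 104 in NM_001161848, 185 in NM_001161849, 292 in NM_001161850 and 160 in NM_011361. The shared exons made up 73.9% of the length of NM_001161845 and 88.1% to 95.7% of the other 5. Each isoform level therefore rests on how Cufflinks divided reads of the shared exons, with only these short exons to tell transcripts apart.

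The level of Sgk1 RNA was about 3 times as high in the stress table, and the transcript with the start nearest to the shared exons was the one that was much higher. NM_011361 was at 2.69 FPKM in the control table (deposited interval 2.33 to 3.04) and 19.1 FPKM in the stress table (18.3 to 20.0), 7.11 times as high. NM_001161845, from the most distant start, was at 2.03 FPKM (1.79 to 2.27) and 2.56 FPKM (2.30 to 2.83), 1.26 times as high. The summed level of all 6 transcripts was 7.34 FPKM (control) and 21.9 FPKM (stress). The sum was thus 14.5 FPKM higher and NM_011361 alone was 16.4 FPKM higher. The other 5 together were lower, at 4.65 FPKM in the control table and 2.78 FPKM in the stress table.

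The 4 starts between these were lower in the stress table or at 0. NM_001161848 was at 1.90 FPKM in the control (1.61 to 2.20) and 0.049 FPKM in the stress table (0.0050 to 0.095). NM_001161850 was at 0.597 FPKM (0.449 to 0.741) and 0.174 FPKM (0.0968 to 0.249). NM_001161847 was at 0.121 FPKM in the control table (0.0570 to 0.186) and was listed at 0 in the stress table, and NM_001161849 was at 0 to 2 decimals in both. These 4 transcripts summed to 2.62 FPKM (control) and 0.223 FPKM (stress). NM_001161848 differs from NM_011361 by a first exon of 104 bases only, the shortest of the 6.

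On the log2((stress + 1)/(control + 1)) scale, with a pseudocount of 1 FPKM that understates the change of low values, the gene differed by 1.46, NM_011361 by 2.45, NM_001161845 by 0.23, NM_001161850 by -0.44 and NM_001161848 by -1.47. The median over all 11071 genes that averaged 1 FPKM or more over the tables was 0.08. Of these genes 0.307% were higher by at least 1 and 0.289% lower by at least 1. Of 12857 transcripts with such a mean, 3.07% were higher by at least 1, as NM_011361 was, and 2.39% were lower by at least 1. NM_001161848 averaged just under 1 FPKM and is not among them. Sgk1 ranked 23 by difference among the 11071 genes, and first among the 10691 with at least 1 FPKM in both tables, a filter that drops genes higher from under 1 FPKM. Since each group had a single table, nothing was replicated or tested, and these values describe the tables rather than the conditions. The deposited intervals cover the reads within a table and not the spread between mice, and for 2723 of 33262 transcripts the FPKM lay outside its interval in at least 1 table, though for none of Sgk1.

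**Figure D1:**
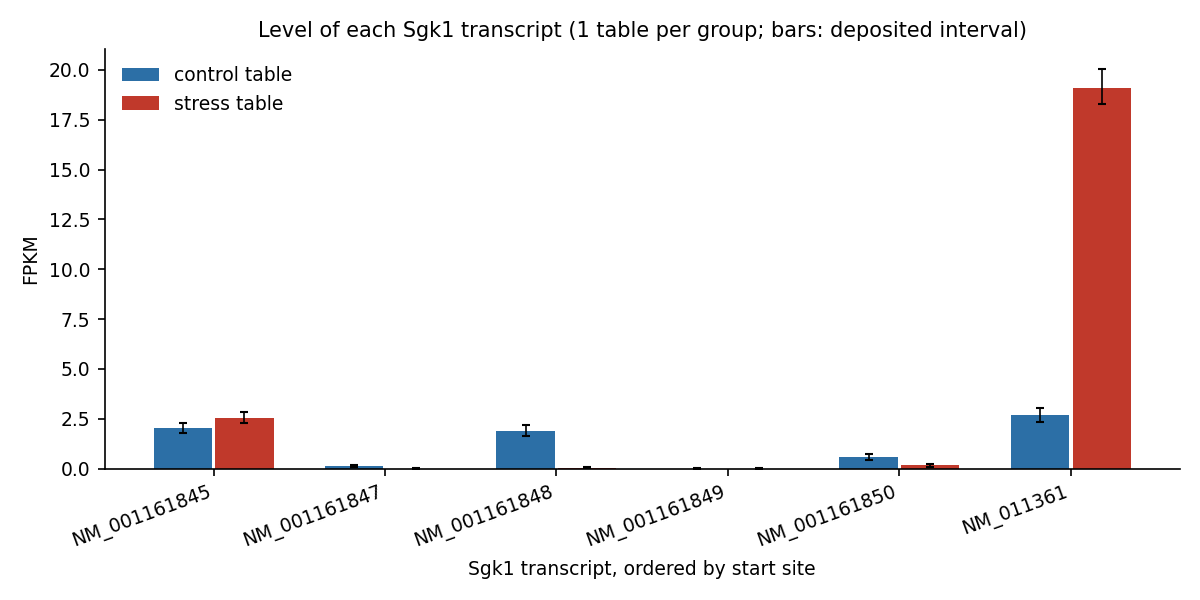
FPKM of the 6 Sgk1 transcripts in the control table (blue) and the stress table (red), ordered by start site from the most distant to the nearest to the shared exons. Error bars are the deposited intervals, and NM_011361 stands out at 19.1 FPKM in the stress table against 2.69 in the control.

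As a share of Sgk1 RNA, NM_011361 made up 36.6% (control table) and 87.3% (stress table). NM_001161845 went from 27.7% to 11.7%, NM_001161848 from 25.9% to 0.226%, and NM_001161850 from 8.14% to 0.793%. In the control table no single start therefore held most of the RNA, and in the stress table a single start did. A share moved by as much as this 50.7 percentage points in 8.28% of 3211 genes with 2 or more transcripts that averaged 1 FPKM or more, where the median of the largest change was 8.50 points. Among 83 genes with 6 transcripts it was 14.5%, and it was 3.25% among 1722 genes at 5 FPKM or more in each table. So shifts of this size were not rare in these tables, whose isoform levels are estimates.

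The sequences before the start sites are shown for NM_011361, which had the largest difference upwards, NM_001161848, which had the largest downwards, and NM_001161850, whose start lies 776 bp before that of NM_011361. They are 250 bases directly before each start, on the plus strand, from RefSeq (GRCm38.p6), at chr10:21985854-21986103 for NM_001161848, chr10:21993640-21993889 for NM_001161850 and chr10:21994416-21994665 for NM_011361. The RefSeq table held 6 Sgk1 windows, and all 5 distances between their starts equalled those between the 6 starts of the RNA tables, by which windows were matched to transcripts. Capitals mark matches to the motifs described next.
NM_001161848: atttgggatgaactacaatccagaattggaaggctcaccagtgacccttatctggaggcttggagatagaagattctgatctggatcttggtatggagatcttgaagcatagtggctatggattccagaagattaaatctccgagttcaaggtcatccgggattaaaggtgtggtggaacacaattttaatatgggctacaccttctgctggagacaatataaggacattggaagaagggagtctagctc
NM_001161850: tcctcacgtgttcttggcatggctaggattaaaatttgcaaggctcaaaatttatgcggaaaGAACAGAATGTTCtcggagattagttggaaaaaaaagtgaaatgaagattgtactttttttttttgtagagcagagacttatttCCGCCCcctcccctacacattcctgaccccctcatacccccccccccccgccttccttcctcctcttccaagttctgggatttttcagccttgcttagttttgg
NM_011361: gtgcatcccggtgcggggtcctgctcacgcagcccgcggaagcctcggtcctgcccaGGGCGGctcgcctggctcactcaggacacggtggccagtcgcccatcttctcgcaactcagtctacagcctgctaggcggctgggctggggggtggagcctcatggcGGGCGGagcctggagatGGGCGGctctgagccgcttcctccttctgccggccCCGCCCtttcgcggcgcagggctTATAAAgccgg

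The window of NM_001161850 held GAACAGAATGTTC, a match to the glucocorticoid response element, the palindrome that glucocorticoid receptors are known to bind (ACANNNTGT with G and any base before it and any base and C after it). It lay 188 to 176 bases before that start, which is 964 to 952 bases before the start of NM_011361. Of 32851 RefSeq promoter windows of the same length, 0.387% held this longer motif on either strand, and 5.84% held the core ACANNNTGT. The core, which every match to the longer motif contains, was also found in the window of NM_001161847, as ACAGTTTGT. The window of NM_011361 held 4 matches to GGGCGG, a motif of Sp1 factors found in 32.7% of windows, and a match to TATAAA, the TATA box, 11 to 6 bases before the start (12.4% of windows). TATAAA was also found 28 to 23 bases before the start of NM_001161849, the transcript at about 0 in both tables. The window of NM_011361 held 22 CpG dinucleotides, where the median of all windows was 6. Of its bases 70.4% were G or C, where the median was 52.4%. NM_001161850 had 1 match to GGGCGG, and NM_001161848 and NM_001161845 matched none of the motifs and held 2 CpG each. The cAMP response element TGACGTCA (1.55% of windows) and the AP-1 motif TGANTCA (6.75%) matched in none of the 6 windows. The first 5 bases of that response element, TGACG (17.8% of windows), matched in the window of NM_001161847. All motifs were searched on both strands, and a match is a stretch of letters, not a measured site of binding.

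Within the gene body of Sgk1, 5hmC peaks lay in the long introns that belong to NM_001161845 alone. None lay on an exon, and exons made up only 3.53% of the body. Of the 12 regions, 4 were before the first start, 7 in the introns of NM_001161845 before the second start, and 1 beyond the gene end. No library had a peak between the second start and the gene end, a stretch of 21.2 kb that holds the 5 other starts and all shared exons. The peak nearest to any of the 6 starts was 4.08 kb from the start of NM_001161847, and the peak nearest to the start of NM_011361 was 20.1 kb away. A library without a listed peak may still carry 5hmC there, since the lowest listed score was 50 in every list.

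**Figure D2:**
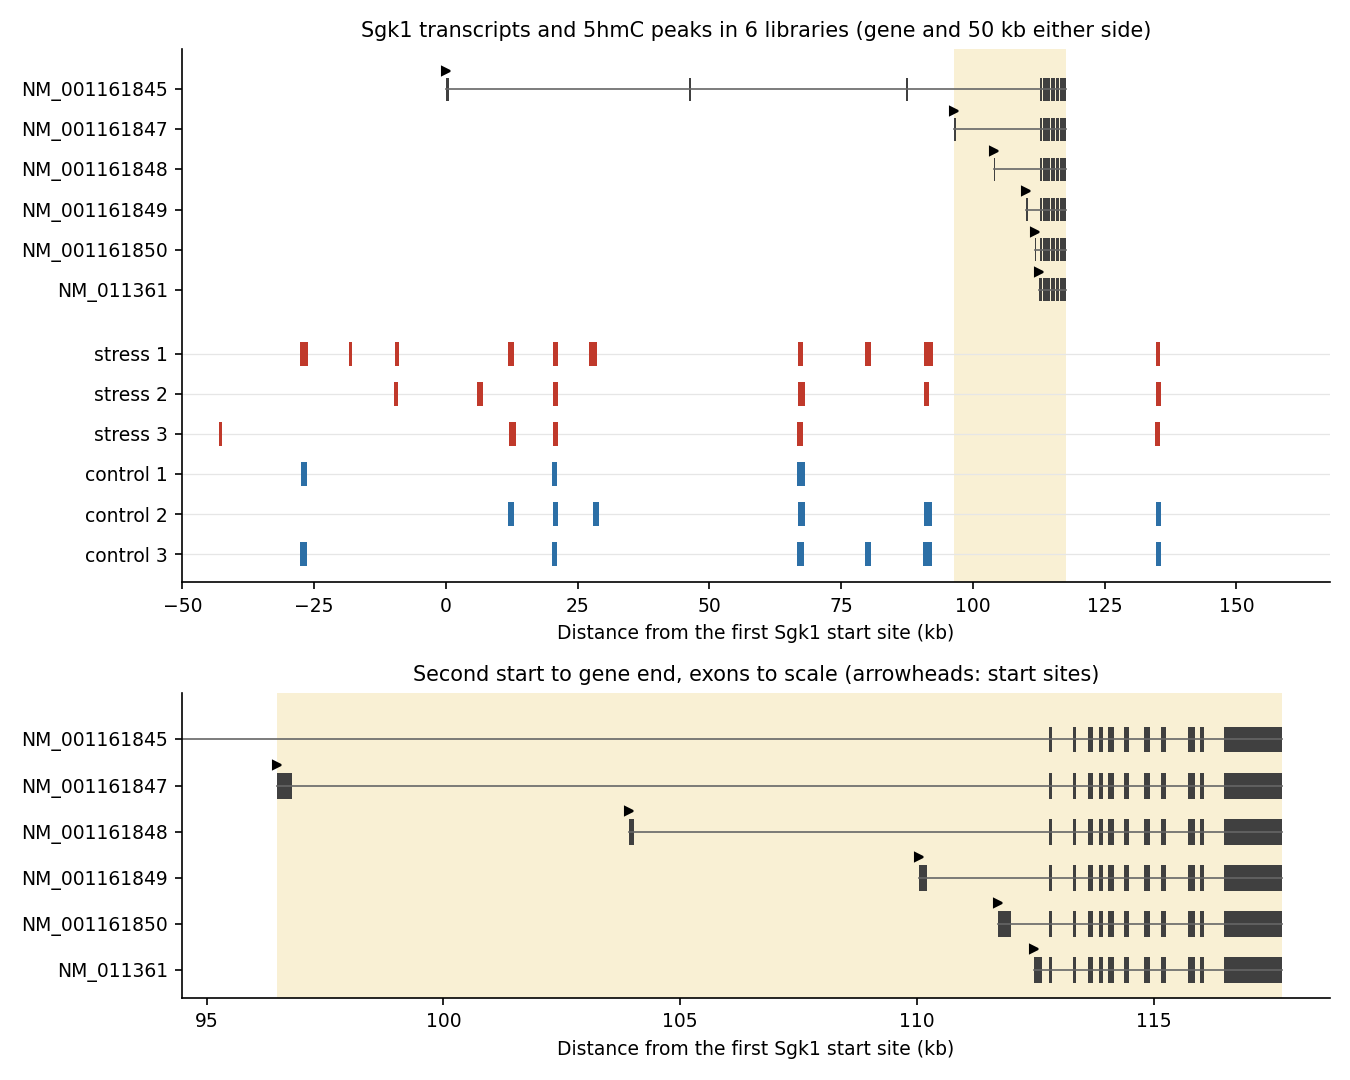
Upper panel, the 6 Sgk1 transcripts (dark boxes, exons, widened where too short to see; arrowheads, start sites) and the 5hmC peaks of 3 stress (red) and 3 control (blue) libraries, by distance in kb from the first start. Lower panel, the shaded stretch from the second start to the gene end with exons to scale; no library has a peak in this 21.2 kb, while 2 regions upstream of it have one in all 6.

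Many genes of that length had no peak either. Of 7997 genes 0.5 to 2 times as long as 21.2 kb, 35.7% had no peak in any library, as did 24.1% of the 4263 that averaged 1 FPKM or more. Of 13035 start sites of genes at such a level, 48.3% had no peak of any library within the 4.08 kb seen here. These comparisons were chosen after the peaks had been seen.

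In the introns, 2 regions had a peak in all 6 libraries, which held for 1.63% of all regions. The first, chr10:21622138-21623342 in intron 1 of NM_001161845, was centred 20.8 kb past the first start, and 696 of its 1205 bases were under the peaks of every library. The second, chr10:21668533-21670102 in intron 2, was centred 67.3 kb past the first start, with 914 of 1570 bases under every peak. It ranked high in 2 control lists, among the top 2.11% by score in control 1 and the top 8.85% in control 3, and lower in the others, from the top 15.1% in stress 1 to the top 48.1% in stress 3. The scores of the intron 1 region placed it between the top 17.2% of control 2 and the top 69.2% of control 3. Among 3330 genes 0.5 to 2 times as long as Sgk1, 1.29% held at least 2 regions found in all 6 libraries. Another 7.72% held 1, and 91.0% held none. This comparison was also chosen after the peaks had been seen.

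Another 2 regions were found in most libraries of both groups. The region chr10:21692578-21694395 in intron 3, nearest of all to the second start, had a peak in stress 1, stress 2, control 2 and control 3. The region chr10:21736579-21737683, 16.9 kb past the gene end, had one in every library but control 1. There it was among the top 1.37% of control 3 and the top 1.94% of stress 2, but only in the top 57.7% of stress 1. Stress 3, which lacked the region in intron 3, had the longest list with 31654 peaks, and control 1, which lacked both, had 17186.

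The remaining 8 regions had peaks in 1 to 3 libraries. The region 26.2 kb before the first start was found in stress 1, control 1 and control 3, and that centred 12.6 kb past it in stress 1, stress 3 and control 2. The regions centred 28.1 and 80.1 kb past the first start were each found in stress 1 and 1 control library. The region 8.91 kb before the first start had peaks in stress 1 and stress 2 and in no control library. The last 3 regions were in a single stress library each, 2 before the first start and 1 in intron 1. No region had a peak in all 3 libraries of one group and none of the other. Genome-wide, 1.14% of regions were found in stress libraries only by that rule and 0.371% in control libraries only.

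Stress 1, with the shortest peak list of all 6 (15195 peaks), had the most peaks at Sgk1. The window held 10 peaks in stress 1, 6 in stress 2, 5 in stress 3, 3 in control 1, 6 in control 2 and 6 in control 3. Per 10000 listed peaks this was 6.58 in stress 1, between 1.58 and 2.16 in stress 2, stress 3, control 1 and control 2, and 3.67 in control 3. Stress 3 had the longest list and the fewest peaks here of the stress group.

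The difference between the groups in the share of Sgk1 covered by peaks was smaller than the spread between pools. In the gene body, peaks covered 6.46% of bases in stress 1, 3.91% in stress 2, 2.84% in stress 3, 2.05% in control 1, 5.19% in control 2 and 4.28% in control 3. The groups overlapped, with the highest value in stress 1 and the lowest in control 1. Of 2949 genes of like length with any peak, 8.61% had stress above control without overlap and 1.59% the reverse. The means were 4.40% ± 1.86 in stress and 3.84% ± 1.62 in control libraries (SD, n = 3 each; exact two-sided permutation p = 0.8, 0.8 after Benjamini-Hochberg adjustment over 4 intervals). The direction of this difference of 0.562 percentage points rested on single libraries, since it was -0.466 without stress 1 and -0.335 without control 1. From the first to the second start, where all body peaks lay, coverage was 5.37% ± 2.27 and 4.69% ± 1.97.

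In the 50 kb before the gene, coverage was 5.32%, 1.45% and 1.23% in stress 1, 2 and 3, and 2.36%, 0% and 2.84% in control 1, 2 and 3 (means 2.66% ± 2.30 and 1.73% ± 1.52, exact permutation p = 0.7, adjusted 0.8, n = 3 each). Without stress 1 the difference of 0.931 points became -0.398, and without control 2 it became 0.0637. In the 50 kb after the gene it was 1.45%, 1.94% and 1.98% in the stress libraries and 0%, 1.73% and 2.08% in the control libraries (exact permutation p = 0.7, adjusted 0.8). The difference of 0.520 points there became -0.115 without control 1, the library without the downstream peak. Over the whole window the means were 3.40% ± 1.46 and 2.77% ± 0.975 (exact permutation p = 0.6, adjusted 0.8, n = 3 each), and the difference of 0.637 points became -0.185 without stress 1 and 0.0783 without control 1. With 3 libraries against 3 the smallest p is 0.1, so no result here could fall under 0.05, and the spread that enters each p is that among pools.

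**Figure D3:**
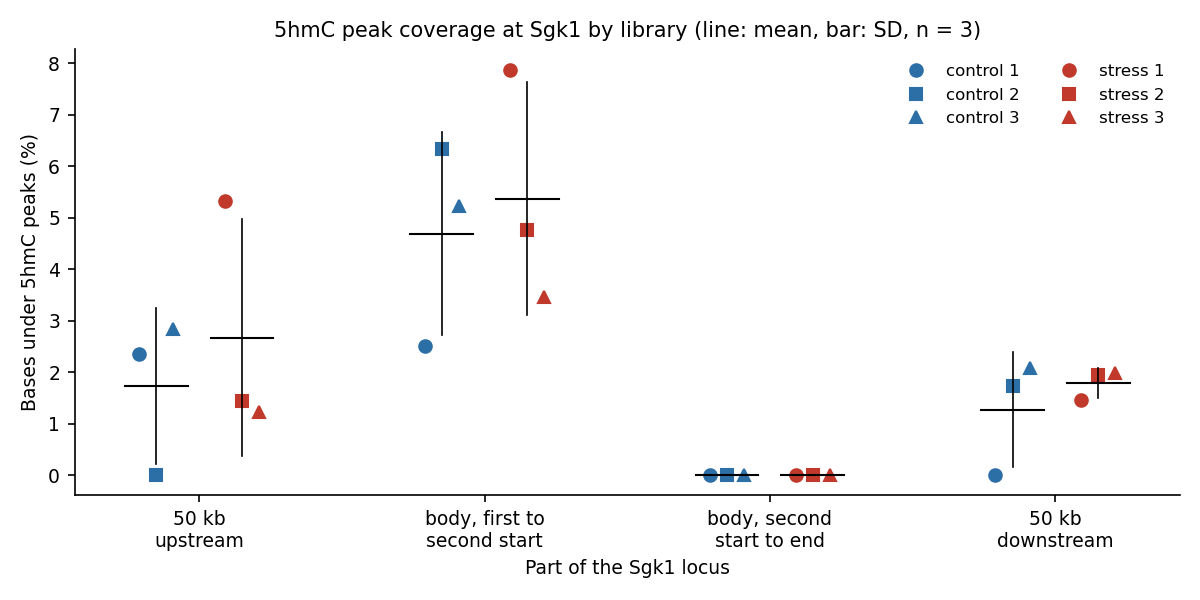
Percentage of bases under 5hmC peaks in 4 parts of the Sgk1 locus, 1 symbol per library (circle, square and triangle for replicates 1, 2 and 3; blue control, red stress), with the mean (line) and SD (bar, n = 3). The groups overlap before the gene, between the first and second start and after the gene, and all 6 libraries are at 0 from the second start to the gene end.

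Compared with other genes of its length, Sgk1 carried more peak-covered sequence than most in every library. It lay at percentile 98.9 of 3330 genes in stress 1, 78.3 in stress 2, 61.2 in stress 3, 77.2 in control 1, 90.9 in control 2 and 96.2 in control 3. The median of those genes was between 0.805% and 2.03%. Among the 2279 of them counted as expressed, Sgk1 lay lower in every library, from percentile 98.5 in stress 1 to 55.2 in stress 3. The genes most like Sgk1 in coverage across the 6 libraries, by Euclidean distance in percentage points, were Lmln, Actn4, Etv6, Cdk6 and D17Wsu92e, at distances of 3.05 to 3.34. Etv6, for example, had 4.16%, 4.38% and 3.49% in stress 1, 2 and 3, and 3.66%, 5.38% and 3.11% in control 1, 2 and 3.

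No other gene lay within 50 kb. The nearest annotated genes were Gm5420, 188 kb before the first start, and 4930444G20Rik, 66.4 kb past the gene end, and both were listed at 0 in both RNA tables.

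The genes whose pair of RNA levels was nearest to Sgk1, by Euclidean distance over log2(FPKM + 1) in the 2 tables, were Arc, Tsc22d3, Slc2a1, Bhlhe40 and Bcl6, at 0.45 to 0.62. Slc2a1, the glucose transporter of the blood-brain barrier, was at 11.2 FPKM (control) and 21.6 FPKM (stress). Bhlhe40, a transcriptional repressor tied to the clock, was at 9.94 and 16.1, and Bcl6, another repressor, at 8.63 and 14.3.

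The genes that control SGK1 activity differed little between the tables. Of 10 receptors and kinases that act on Sgk1 or its protein, 9 averaged 1 FPKM or more and none was higher or lower by 1. Over all 11071 genes only 0.307% were higher and 0.289% lower by at least 1, so that count says little about this list. The median difference of the 9 was 0.10, beside 0.08 for all genes. The receptors for corticosterone were at 8.58 and 7.17 FPKM (Nr3c1, the glucocorticoid receptor) and 16.8 and 17.2 FPKM (Nr3c2, the mineralocorticoid receptor), control first. Hsd11b1, which regenerates active glucocorticoid inside cells, had the highest difference of these 9, 0.31 (9.42 and 12.0 FPKM). Prr5, a subunit of mTOR complex 2 below that level, differed by 0.33 (0.688 and 1.13 FPKM). Pdpk1, which phosphorylates SGK1, was at 13.4 and 15.1 FPKM, and Rictor, a defining subunit of mTOR complex 2, at 5.28 and 5.73. Shares of transcripts moved more in some of these genes than in Sgk1 although their summed levels were close, by up to 73.0 percentage points in Pdpk1, 68.5 in Mlst8 and 62.0 in Mapk7.

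Kinases related to SGK1 were nearly equal in the tables. Sgk2 was at 0.329 and 0.359 FPKM and Sgk3 at 0.739 and 0.724, so neither averaged 1 FPKM, and in Sgk3 a transcript share moved by 63.6 points. Akt1 was at 18.7 and 18.8 FPKM and Akt2 at 8.58 in both. The summed Sgk1 level was above that of Sgk2 and Sgk3 in both tables, and went from below the level of Akt2 in the control to above those of Akt1 and Akt2 in the stress table.

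Among genes that act on the breakdown of SGK1, 4 of 5 lay above the median of all genes and none reached 1. Of all 11071 genes 0.307% were higher by at least 1. Syvn1, a ubiquitin ligase of the endoplasmic reticulum, was at 2.24 and 3.71 FPKM, and Ube2g2, a ubiquitin-conjugating enzyme of the same pathway, at 10.0 and 15.2. Stub1, a ligase that works with chaperones, was at 18.7 and 18.6. Tsc22d3, a glucocorticoid-induced regulator also known as GILZ, had the highest difference at 0.94 (7.42 and 15.2 FPKM) and belongs to 2 of the lists used here.

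The substrates of SGK1 lay close to the median of all genes. Of 14, 13 averaged 1 FPKM or more, and their median was 0.06. None differed by 1 in either direction, beside 0.307% of all genes higher and 0.289% lower by that much. Foxo3, a transcription factor that SGK1 keeps out of the nucleus, was at 5.10 and 6.58 FPKM, the highest difference at 0.31. Nedd4l was at 17.7 and 20.7, Ndrg1, a widely used readout of SGK1 activity at the protein level, at 26.0 and 27.5, and Gsk3b at 16.8 and 17.5.

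Other genes known to be induced by glucocorticoids were also higher in the stress table. On the log2(FPKM + 1) scale each differed by less than Sgk1, but as plain ratios of FPKM Sult1a1 (4.47), Plin4 (3.68) and Cdkn1a (2.99) were at or above the 2.98 of Sgk1, all from low control levels. Of 17 listed genes 16 averaged 1 FPKM or more, each of these 16 exceeded the all-gene median, and their own median was 0.67. Only Sult1a1, a sulphotransferase (0.482 and 2.16 FPKM, 1.09), and Cdkn1a, a cell cycle inhibitor (1.07 and 3.19 FPKM, 1.02), reached 1. Over all 11071 genes 0.307% did. Among the members of this list with more than 1 transcript, the largest change in a share was 23.6 points in Per1, a clock gene, followed by 5.75 in Gjb6, 0.489 in Tsc22d3 and under 0.001 in Cdkn1a. The list was drawn up with some of these values known, so its count is not independent support.

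**Figure D4:**
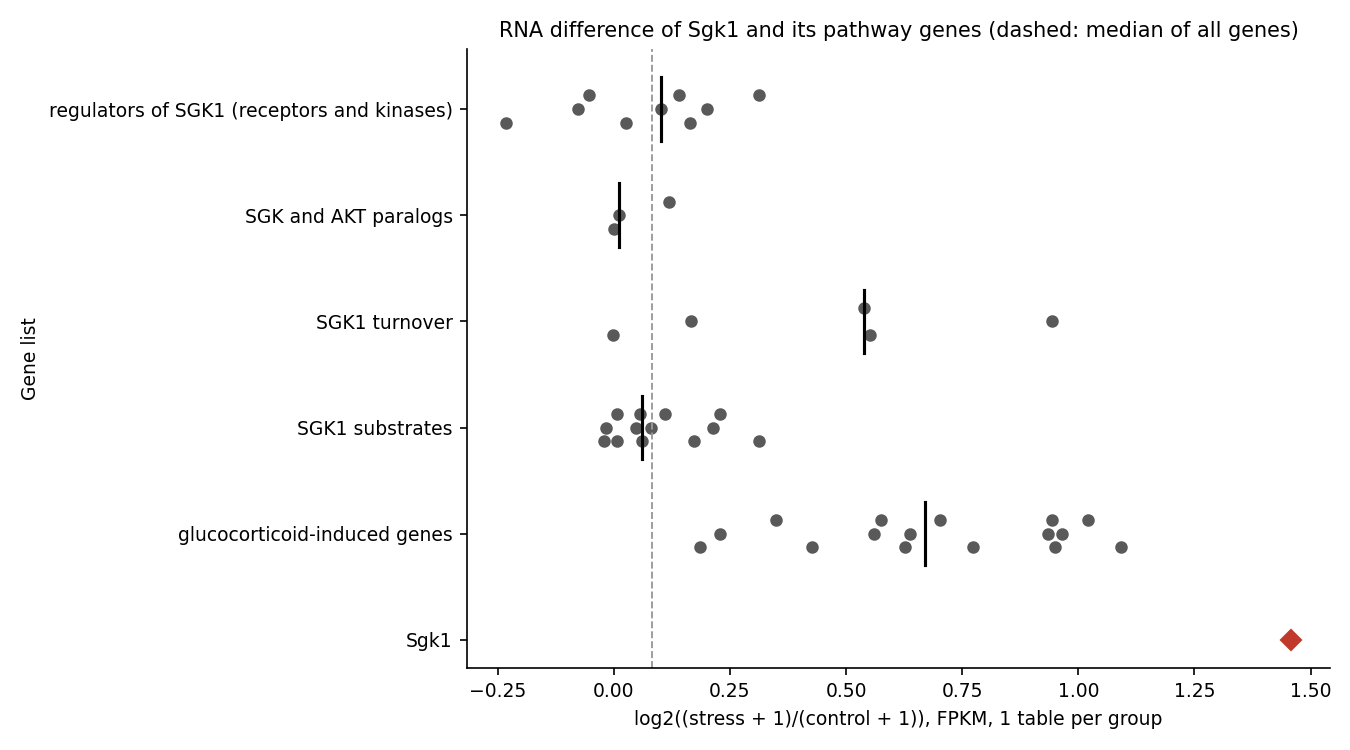
Difference in RNA level, log2((stress + 1)/(control + 1)) of FPKM, for genes of the 5 lists that averaged 1 FPKM or more (grey points, 1 per gene; black line, list median) and for Sgk1 (red diamond). The dashed line is the median of all genes, 0.08; Sgk1 lies at 1.46, right of every gene of the lists.

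Bulk tissue cannot show which cells held the Sgk1 RNA, and fewer cells of a type cannot be told apart from less RNA per cell. Markers of hippocampal excitatory neurons were present in both tables, with all 9 above 1 FPKM and summed levels of 615 FPKM (control) and 677 FPKM (stress). Of these 9, 6 were higher and 3 lower in the stress table, with a list median of 0.12 on the log2 scale. Prox1 of dentate granule cells was at 23.8 and 29.1 FPKM, and Neurod6 at 46.8 and 40.3. Markers of some other cell types differed between the tables. Of oligodendrocyte markers 11 of 12 were lower in the stress table, summing to 1531 FPKM (control) and 1337 FPKM (stress). For choroid plexus, the 6 of 9 markers that averaged 1 FPKM or more were each lower, the 9 summing to 233 and 64.9 FPKM, with Ttr at 217 and 59.5 and none at 0. Of astrocyte markers 8 of 9 were higher, summing to 584 and 669 FPKM. Gjb6, with the largest difference of the 9 (8.71 and 13.5 FPKM), is also in the glucocorticoid-induced list. Endothelial markers were split, with 4 of 8 higher, although they summed to 50.8 and 66.3 FPKM. Thalamic markers were higher in 4 of 6, summing to 21.0 and 27.4, microglial markers in 5 of 8 and inhibitory neuron markers in 4 of 6. Of 2 blood markers that averaged 1 FPKM or more, 1 was higher. On the log2 scale the list medians were -0.37 (oligodendrocyte), -1.16 (choroid plexus), 0.19 (astrocyte), 0.02 (endothelium), 0.28 (thalamus), 0.22 (microglia) and 0.12 (inhibitory neuron), beside 0.08 for all genes. The part of these cell types in the Sgk1 values was not tested.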

How the data were processed

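For RNA, the authors deposited 1 table of transcript FPKM per group, in Cufflinks format on mm9, with an interval and a coverage for each transcript. The submitters' processing notes name TopHat 1.0.12, Cufflinks 2.1.1 and Cuffdiff 2.1.1 for these tables. How a group's 3 libraries were combined is not stated in the labels. Libraries were made from total RNA with random primers and read as 100 nt pairs, per the labels. Coverage per FPKM, which follows depth, was 8.14 (control) and 9.22 (stress). For 5hmC, the authors deposited 1 list of peaks per library with a score per peak. Fragments of 300 bp were labelled chemically, captured and read as 50 nt single reads, giving 25000000 to 35000000 unique reads per library, per the labels. Bowtie 0.12.9 is the aligner that the submitters' processing notes list for these libraries. Peaks carry MACS names in the files, and the labels do not state its version. Scores were used only as ranks within a list.

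FPKM were summed per gene, with a pseudocount of 1 FPKM. Only peaks on numbered, X and Y chromosomes were kept, and they were merged across libraries on an overlap of 1 bp or more. Coverage was compared with the exact two-sided permutation test over all 20 assignments of 6 libraries. Alternatives were a pseudocount of 0.1, centring, no filter on low values, the most abundant transcript, shares from coverage, the same number of top-scoring peaks (15195), the higher-scoring 50% of each list, division by the coverage of all gene bodies, flanks of 20 and 100 kb, at least 50% of a region covered, gaps of 200 bp bridged, each library left out, and replicate blocks. As a check of the code only, 200 of 200 genes raised 4-fold and 200 of 200 planted regions were recovered. No noise was added, so this recovery gives no measure of sensitivity in the real data. The gene, the gene lists and the rule for naming genes (list members, genes within 50 kb, the 5 nearest in RNA and in coverage) were chosen with earlier results of these data known. Python 3.11.15, pandas 2.3.3 and numpy 2.4.6 were used. Sequences are from RefSeq (GRCm38.p6), and no coordinates were carried between builds. The values of 1 list member are not reported here.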

Additional observations from a re-analysis of the deposited data

How the results depend on the processing

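The Sgk1 gene difference was 1.56 with a pseudocount of 0.1, 1.37 after centring and 2.45 for the most abundant transcript only. The share of NM_011361 moved by 50.5 points when taken from coverage, and the percentage of genes with as large a shift was 13.2% without the filter on low values. Glucocorticoid-induced genes at or above 1 numbered 5 with a pseudocount of 0.1 and 1 after centring, and SGK1 turnover genes 1 with a pseudocount of 0.1. With 15195 top-scoring peaks per library, 1 region was in all 6 libraries, since the intron 2 peak of stress 3 ranked 15222. The difference in coverage ranged, with 1 library left out, from -0.466 to 1.34 points in the gene body, -0.398 to 1.65 upstream, -0.115 to 0.924 downstream and -0.185 to 1.20 over the window. The cause was not tested. All other alternatives kept the direction or gave 0 (upstream, higher-scoring 50%), and no alternative of the coverage tests had an exact permutation p under 0.2.

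With replicate numbers as blocks, the differences in coverage were the same 0.562, 0.931, 0.520 and 0.637 points in the body, upstream, downstream and over the window, with p of 1, 0.75, 0.5 and 1 (exact permutation within blocks, smallest possible p 0.25). Over genes of like length, deviations of same-numbered libraries had Pearson's r of 0.206, 0.0862 and -0.0368 for numbers 1, 2 and 3. For pairs with different numbers r lay between -0.232 and 0.142. These few values cannot decide whether same-numbered libraries share more than a number. FPKM tables without counts give no interval between mice, and peak lists give no depth at regions without a peak.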
